A study of Mus musculus with 6 samples.

Results

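The killer lectin receptor genes examined were Klrd1, Klrk1, Klrc1, Klrc2, Klrc3, Klre1, Klrb1c and Klrg1, 8 of 21951 protein-coding genes, all on mouse chromosome 6. They were chosen by measured values of these same libraries, namely the ATAC-seq peak calls at their loci. Among those calls, a strong promoter peak of Klrd1 in Th17 cells alone had been seen. The pattern and the strength of the Klrd1 peak are therefore descriptions, and no test was made of any member. All peaks within the gene bodies and 15 kb on either side were taken, and peaks of the 6 libraries that overlapped or touched were joined, which gave 48 of the 236017 regions of the series.

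The 6 libraries were made from Th9, Th2 and Th17 cells, 2 libraries each, numbered 1 and 3 in the labels. Naive T cells from the spleen of wild-type C57BL6/J mice, adults of both sexes per the methods, were activated through CD3 and CD28 and cultured until the fifth day. Th2 cultures received IL-4, IL-2 and an antibody to IFN-γ, and Th9 cultures the same with TGF-β1. Th17 cultures received IL-6, TGF-β1, IL-23 and IL-1β with antibodies to IFN-γ, IL-4 and IL-2. The sources used here did not say whether replicates came from separate mice. Each culture holds many cells, so a stronger peak from more cells with an accessible site and one from greater accessibility per cell cannot be told apart.

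Killer lectin receptors are C-type lectin-like proteins of the surface of natural killer cells and some T cells, and most are encoded in a gene complex on this chromosome. CD94, the product of Klrd1, pairs with NKG2A, the inhibitory product of Klrc1, or with NKG2C, the activating product of Klrc2, and the pairs read the non-classical MHC class I molecule Qa-1. NKG2D, the product of Klrk1, binds stress-induced ligands, NK1.1 is a product of Klrb1c, and KLRG1 is an inhibitory receptor for cadherins that marks differentiated T cells. A peak in ATAC-seq marks DNA that the transposase could cut, and is no measure of transcript.

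Of the members, 6 lie side by side, from Klre1 through Klrd1, Klrk1, Klrc3 and Klrc2 to Klrc1, and their windows overlapped in 1 stretch of 131 kb (chr6:129562905-129693973, mm10) with 30 regions. Klrb1c (window chr6:128763485-128804215) and Klrg1 (window chr6:122255596-122297882) stood apart, with 9 regions each. Because neighbouring windows share regions, the members are not independent of each other. Sequences are shown here to let a reader see how alike these genes are at their starts, since near-identical copies bear on where reads can be placed. Each is the 250 bases before the RefSeq start, read 5′ to 3′ along the strand of the gene, from the RefSeq promoter table of GRCm38.p6. In it 6 of the 8 members matched, and Klrd1 and Klrg1 had no entry. The RefSeq start of Klre1 differs from the annotated start used for its promoter call, position 129577905. Its stretch lies wholly past that start, inside the gene body. Capitals mark the core RUNX word TGTGGT, or ACCACA where it lies on the opposite strand.
Klrc2, chr6:129660597-129660846, minus strand: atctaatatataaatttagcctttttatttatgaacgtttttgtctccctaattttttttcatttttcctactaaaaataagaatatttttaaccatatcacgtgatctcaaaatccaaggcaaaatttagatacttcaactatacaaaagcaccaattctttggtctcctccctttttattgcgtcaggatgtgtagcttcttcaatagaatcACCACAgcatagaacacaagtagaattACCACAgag
Klrc3, chr6:129643289-129643538, minus strand: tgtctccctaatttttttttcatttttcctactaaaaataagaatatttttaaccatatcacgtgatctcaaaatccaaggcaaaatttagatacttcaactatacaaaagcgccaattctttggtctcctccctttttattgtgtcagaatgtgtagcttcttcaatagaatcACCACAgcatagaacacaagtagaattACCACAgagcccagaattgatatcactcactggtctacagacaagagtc
Klrc1, chr6:129678974-129679223, minus strand: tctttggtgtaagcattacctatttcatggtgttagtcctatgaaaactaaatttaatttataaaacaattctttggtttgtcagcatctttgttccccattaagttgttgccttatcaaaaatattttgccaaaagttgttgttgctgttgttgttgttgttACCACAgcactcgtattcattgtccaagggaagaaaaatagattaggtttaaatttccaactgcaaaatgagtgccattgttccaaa
Klre1, chr6:129577963-129578212, plus strand: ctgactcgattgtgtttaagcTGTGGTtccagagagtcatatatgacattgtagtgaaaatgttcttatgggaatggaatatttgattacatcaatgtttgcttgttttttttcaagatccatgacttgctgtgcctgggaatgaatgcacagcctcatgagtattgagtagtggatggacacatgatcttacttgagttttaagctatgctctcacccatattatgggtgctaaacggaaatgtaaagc

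The stretches were aligned over their whole length, with gaps at the ends left free. Those of Klrc2 and Klrc3 paired 209 bases with 206 identical, or 98.6%. Over the other 14 pairs of the 6 members the alignments paired 14 to 208 bases with an identity of 66.7% to 79.1%. Bases opposite a gap were not counted, so a short pairing can be a mere overlap of stretch ends. No unrelated stretches were aligned for a background value, so the identities of these 14 pairs are not read as likeness. The RUNX word stood at least once in all 6 stretches, with a second copy in Klrc2 and Klrc3, whose shared sequence counts as 1 case. It was held by 14.2% of 27025 RefSeq promoters of the same length. No stretch of Klrd1 or Klrg1 was searched, and those of Klre1 and Klrb1c lie inside the annotated gene bodies. The stretches of Klrc2 and Klrc3 reach in part into theirs. The ETS word GGAAGT occurred in Klrb1c alone and in 19.9% of promoters. The AP-1 word TGANTCA (6.85% of promoters), the STAT word TTCNNNGAA (7.14%), the T-box word AGGTGT (12.04%) and the GATA word AGATAA (10.2%) occurred in none of the 6. Both strands were searched, and a match is a string of letters and not a shown binding site.

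The lists hold no read counts, so the depth behind each peak is unknown. They held 100317 to 142213 peaks, and their lowest fold enrichment ran from 1.71 to 2.11, so a weak site could be listed in 1 library and not in another. Peak strength is therefore given as a percentile, the share of a library's own peaks with a lower fold enrichment. In the marker check, the promoters of Cd3e, Cd3g, Cd3d and Cd5 held a peak in all 6 libraries and that of Cd4 in 4. The natural killer cell markers Ncr1, Klra8, Klra4 and Klra9 held a promoter peak in 0 of 6 libraries, while Eomes held one in 6 of 6. Cd8a held none, and Cd8b1 held one in all 6. The B cell markers Ms4a1, Cd79a and Pax5 held none. Of the macrophage markers, Csf1r and Lyz2 held none and Adgre1 was listed in the Th9 and Th2 libraries. Among the subset cytokines, the Il17f promoter was listed in both Th17 libraries alone, and that of Il17a in both Th17 libraries (81.4 and 69.5) and in Th2 replicate 3 (36.1). Il9 and Il4 were listed by every library but the Th17 pair. The Il9 percentiles were 88.6 and 90.7 in Th9 and lower, 37.1 and 44.4, in Th2. Those of Il4 were 89.5 and 92.3 in Th9 and 87.8 and 88.3 in Th2. Il13 was listed in both Th2 libraries alone.

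Every one of the 8 members held a promoter peak in at least 1 library, where 72% of all protein-coding genes did. A promoter here is the window reaching 1000 bp before and 100 bp past the start of any transcript in the basic annotation. Klrc2, Klrc3 and Klre1 were listed in all 6 libraries, a pattern of 58.7% of genes. Klrc1 was listed in the Th2 and Th17 libraries, Klrk1 in 3 libraries, Klrg1 in 3 and Klrb1c in 1. Klrd1 alone was listed in both Th17 libraries and no other, a pattern that 0.228% of genes shared, which is printed as background since this pattern chose the gene.

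**Figure D1:**
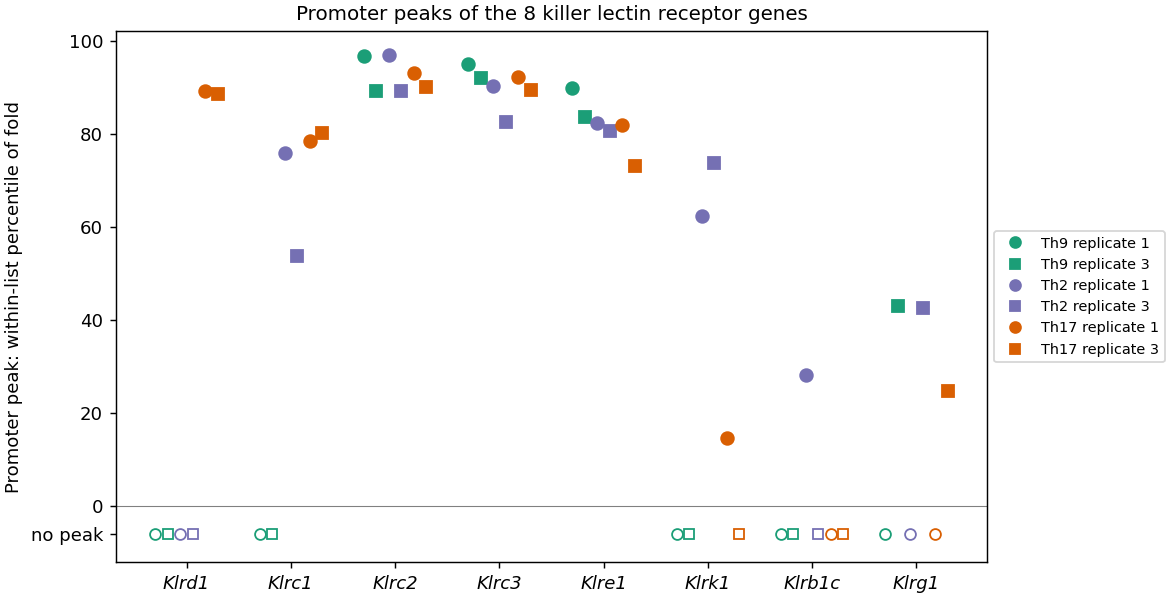
Promoter peaks of the 8 genes. The vertical axis gives the within-list percentile of fold enrichment, filled circles are replicate 1 and filled squares replicate 3 of each subset, and open symbols below 0 are libraries with no promoter peak. Klrd1 has filled symbols in Th17 alone, at 89.2 and 88.4, while Klrc2, Klrc3 and Klre1 have 6 filled symbols each and Klrg1 has filled squares alone.

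Klrd1 (ENSMUSG00000030165.16, chr6:129591782-129598775, plus strand) encodes CD94, the partner of NKG2A, NKG2C and NKG2E at the cell surface. Its promoter region, chr6:129591464-129592008, was 545 bp wide and reached from 318 bp upstream to 226 bp downstream of the start, over exon 1. In Th17 replicate 1 the peak was 470 bp wide with a fold enrichment of 4.94 at percentile 89.2, and in Th17 replicate 3 it was 545 bp wide with a fold enrichment of 4.67 at percentile 88.4. These were 2.81 and 2.73 times the lowest fold of their lists, so the peak was far from the limit of calling in both. No peak of the other 4 libraries touched it. Its sequence was unique by the measure used, with 0% of its 50-base words found elsewhere on the assembled chromosomes.

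The nearest peaks of the other libraries lay upstream of the Klrd1 start. Their near ends lay 2153 bp away in Th9 replicate 1, 8428 bp in Th9 replicate 3, 2098 bp in Th2 replicate 1 and 2101 bp in Th2 replicate 3. Of these, 3 belonged to an intergenic region centred 2256 bp upstream (chr6:129589369-129589684, 316 bp), which 5 libraries listed. Its percentiles were 75.1 in Th9 replicate 1, 77.6 and 78.4 in the Th2 replicates, and 62.8 and 70.6 in the Th17 replicates. The Th17 values were thus the lowest 2 of the 5 at this upstream site, while at the promoter the Th17 libraries were the only ones listed.

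By its mean percentile of 88.8, Klrd1 ranked 1 of the 50 genes whose promoters were listed by Th17 replicates 1 and 3 and by no other library. The genes nearest to it in that value were Il17f, an effector cytokine of Th17 cells, at 87.1, Aqp9, a channel for water and glycerol, at 77.8, and Prr29 at 77.0. Those means are over 2 libraries each. Among all 4008 regions of this pattern, at promoters or elsewhere, the Klrd1 promoter ranked 14, with 99.7% of them below it and a median over all of 36.5. Because a strong peak of this pattern was already known at Klrd1 when the genes were chosen, both ranks are descriptions.

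Both other regions of the 8 loci with this pattern lay on the same side of Klrd1, upstream of Klre1. One, chr6:129572000-129573468, was 19.0 kb upstream of Klrd1 and 5171 bp upstream of Klre1. Its peak was 284 bp wide at percentile 76.7 in Th17 replicate 1 and 1469 bp wide at percentile 66.0 in Th17 replicate 3, and its mean of 71.4 ranked 368 of 4008. The other, chr6:129567118-129567589, was 24.4 kb upstream of Klrd1, at percentiles 29.0 and 27.5, and ranked 2474. The last of these was weak, and 11.6% of its 50-base words occurred elsewhere. The 3 regions lay within 25 kb of each other, a limit that the farthest only just met. Over the genome 141 of the 4008 regions of this pattern, or 3.52%, had at least 2 others within that distance. Since the loci were chosen on these same calls, that share is background and no measure of clustering.

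The central 300 bases of the stronger of these intergenic regions are shown because no gene or annotated promoter covers it. These bases lie in the peak of Th17 replicate 3 alone. The narrower peak of Th17 replicate 1 (chr6:129572164-129572447) ends before them, and its bases were not searched. The capitals mark the only match to the 6 words searched, the T-box word on the opposite strand.
Intergenic region in Th17 libraries, chr6:129572585-129572884, plus strand: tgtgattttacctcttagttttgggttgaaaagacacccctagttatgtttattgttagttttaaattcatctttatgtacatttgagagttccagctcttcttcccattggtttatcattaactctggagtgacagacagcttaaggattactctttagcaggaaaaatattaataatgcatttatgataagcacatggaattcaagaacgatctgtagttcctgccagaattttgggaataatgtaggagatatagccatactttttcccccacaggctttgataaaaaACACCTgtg

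**Figure D2:**
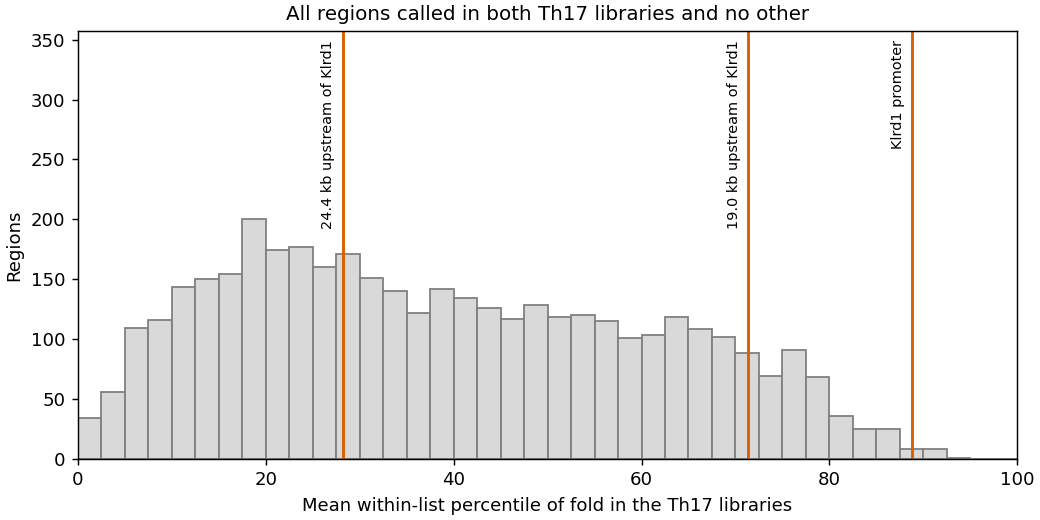
All 4008 regions listed in both Th17 libraries and no other, as a histogram of the mean within-list percentile of fold enrichment in those libraries (horizontal axis) against the number of regions (vertical axis). Orange lines mark the 3 regions at the killer lectin receptor loci, at 28.2, 71.4 and 88.8. The Klrd1 promoter, known to be strong when the genes were chosen, stands in the right tail.

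Of the 48 regions, 3 (6.25%) were listed in both Th17 libraries and no other, against 1.7% of all regions. No region was listed in both Th2 libraries alone, a pattern of 2.87% of all regions, and none in both Th9 libraries alone (1.31%). Both Th2 and both Th17 libraries, without Th9, listed 4 regions (8.33%, against 1.55% of all). Both Th9 and both Th2 libraries, without Th17, listed 1 region (2.08%, against 2% of all). All 6 libraries listed 17 (35.4%, against 21.4%), and 9 regions (18.75%) were listed by a single library, against 37.2% of all. The remaining regions were listed by other sets of libraries. Since the loci were selected on these calls, the shares are read as descriptions.

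The loci were dense in regions. The median window of a member held 9 regions, or 2.27 per 10 kb, against 5 regions and 0.971 per 10 kb over all protein-coding genes. Members' regions had a median width of 861 bp against 541 bp for all regions. By place, 20 of the 48 were intergenic, 10 at a promoter and 4 over an exon of a member. The other 14 lay in a gene body outside the exons of the members. The peaks covered 17.8% to 18.0% of the windows in Th2, 9.77% to 10.97% in Th9, and 11.3% and 16.9% in Th17 replicates 1 and 3, so the Th17 replicates differed more from each other than the Th2 replicates did. Over the genome the covered share was 2.96% to 4.31%.

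**Figure D3:**
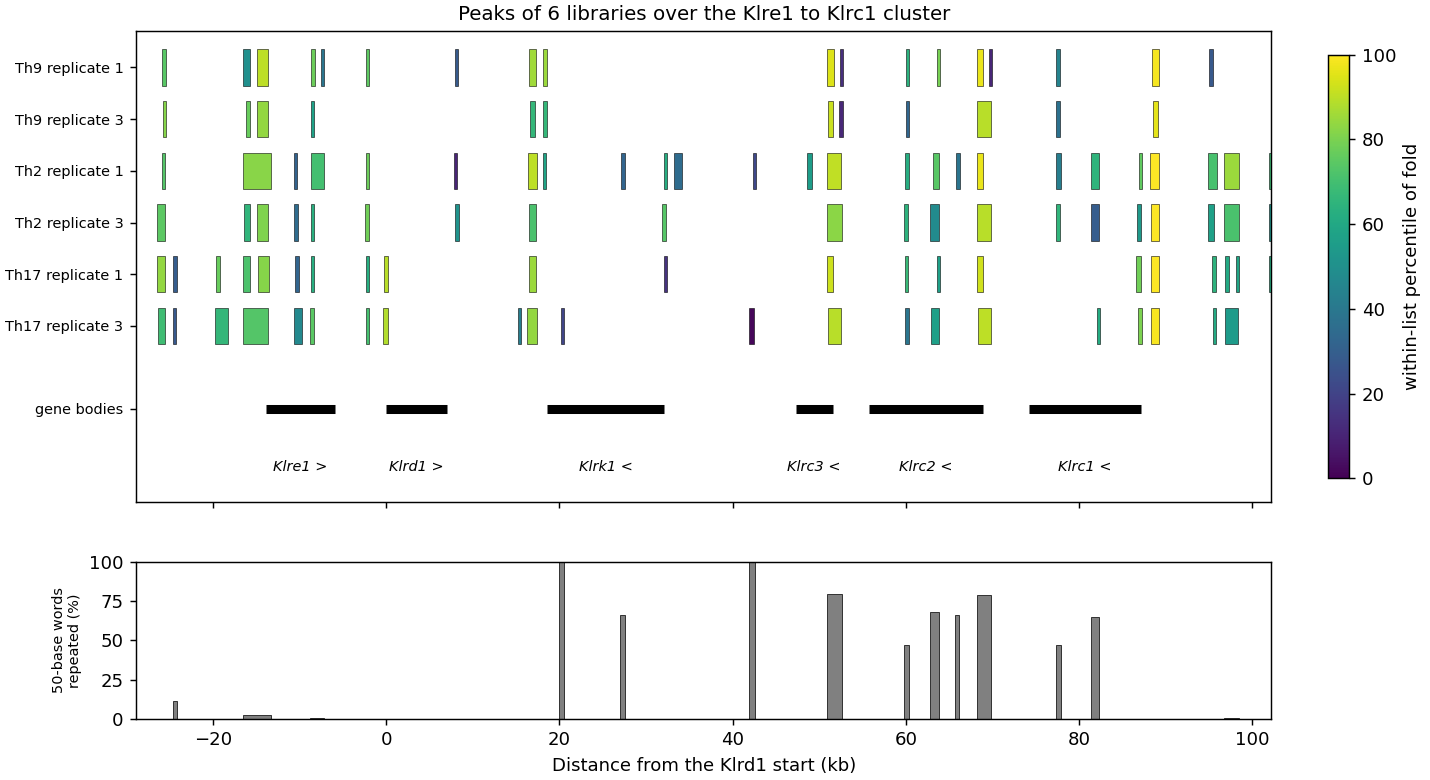
Peaks of the 6 libraries over the cluster from Klre1 to Klrc1, by distance from the Klrd1 start in kb. Bars are peaks coloured by within-list percentile of fold enrichment, black lines are gene bodies with their direction, and the lower panel gives the percent of 50-base words of each region found elsewhere on the chromosomes. Only Th17 rows hold a bar at 0 kb, while all 6 rows hold bars at the starts of Klre1, Klrc3 and Klrc2 and beyond Klrc1.

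Klrc1 (ENSMUSG00000030167.15, chr6:129666015-129678973, minus strand) encodes NKG2A, the inhibitory partner of CD94. Its promoter region, chr6:129678417-129679000, lay over exon 1 and was listed in Th2 at percentiles 75.7 and 53.8 and in Th17 at 78.3 and 80.2. Neither Th9 library listed it. The strongest region of all 48 lay just upstream, chr6:129680028-129681047, with its centre 1564 bp from the Klrc1 start and 0% of its 50-base words repeated. All 6 libraries listed this one, at percentiles 99.7 and 99.1 in the Th17 libraries, 99.9 and 99.8 in the Th2 libraries, and 98.8 and 96.1 in the Th9 libraries. Its fold enrichments were 15.9 and 11.6 in the Th17 libraries, 16.8 and 18.7 in the Th2 libraries, and 12.3 and 10.97 in the Th9 libraries. Both Th9 percentiles were the lowest of the 6. The absence of Klrc1 from the Th9 libraries thus rests on the promoter window, since a window of 2000 bp on either side took in this region and gave 6 libraries. With a required overlap of 200 bp with the promoter window, no library listed Klrc1.

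Around Klrc1, a region over the pseudogene Gm7309, 10389 bp upstream (chr6:129688480-129690244), was listed in Th2 at 84.8 and 71.1 and in Th17 at 60.4 and 54.7, and again in neither Th9 library. An intronic region of Klrc1 (chr6:129669153-129669711) had the reverse absence, with 44.7 and 37.4 in Th9, 42.5 and 65.3 in Th2 and no Th17 peak. It was the only region of the 48 listed in both Th9 and both Th2 libraries alone, and 47.1% of its 50-base words occurred elsewhere.

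Klrc2 (ENSMUSG00000052736.15, chr6:129647496-129660689, minus strand), which encodes the activating NKG2C, had a promoter peak at percentiles 92.9 and 90.005 in the Th17 libraries, 96.8 and 89.1 in the Th2 libraries, and 96.6 and 89.2 in the Th9 libraries. Klrc3 (ENSMUSG00000033027.15, chr6:129639064-129643337, minus strand), which encodes a close relative, NKG2E, had 92.3 and 89.3 in the Th17 libraries, 90.3 and 82.5 in the Th2 libraries, and 94.9 and 92.0 in the Th9 libraries. At Klrc2 the values of the 3 subsets overlapped, while at Klrc3 both Th9 values were above both Th2 values and the Th17 values overlapped with each. These promoter regions were also the ones with shared sequence, as 78.6% of the 50-base words of the Klrc2 region and 79.5% of the Klrc3 region occurred elsewhere. How reads were shared between the copies was not tested, so the 2 peaks are uncertain as separate measurements.

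Klre1 (ENSMUSG00000050241.8, chr6:129577905-129585827, plus strand), which encodes a further receptor of this family, was listed in all 6 libraries. Its promoter region, chr6:129575273-129578485, stood at 81.8 and 73.1 in the Th17 libraries, 82.3 and 80.7 in the Th2 libraries, and 89.9 and 83.6 in the Th9 libraries. The Th9 values were the highest 2, and the ranges of Th2 and Th17 overlapped. Within the gene, a weaker region over exon 3 (chr6:129581099-129582110) was listed in Th2 at 30.9 and 34.8 and in Th17 at 32.1 and 47.2 alone.

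Klrk1 (ENSMUSG00000030149.15, chr6:129610323-129623864, minus strand) encodes NKG2D. Its promoter region, chr6:129623601-129624084, was listed in both Th2 libraries, at percentiles 62.4 and 73.7, and in Th17 replicate 1 at 14.5, near the bottom of that list. At the other end of the gene, a region mostly past the gene end (chr6:129609829-129610397) reached into the last exon. It was listed in Th9 at 84.8 and 66.6 and in Th2 replicate 1 at 58.6, and in neither Th17 library. Of these peaks, only that of Th9 replicate 1 reached the exon. A neighbouring region past the gene end (chr6:129608014-129609246) was listed in all 6, at 66.2 to 90.1. A weak peak of Th17 replicate 3, at percentile 20.3, lay elsewhere in the last exon (chr6:129611907-129612121). No Th9 library listed the Klrk1 promoter.

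Klrb1c (ENSMUSG00000030325.16, chr6:128778485-128789215, minus strand), the NK1.1 gene, held a promoter peak in Th2 replicate 1 alone, at percentile 28.1. A separate peak of Th2 replicate 3, 262 bp wide at percentile 50.9, lay beyond the promoter window (chr6:128789769-128790030). The window was set from the start of the annotated transcripts at position 128788641, which is 574 bp inside the gene body as annotated. Set from the 5′ end of the gene body instead, an alternative chosen after seeing the data, the window held the Th2 replicate 3 peak and not that of Th2 replicate 1, so which Th2 library is listed depends on the start used. A window of 2000 bp on either side of the transcript start gave both Th2 libraries and no other. The strong regions of this locus lay away from the start, within the overlapping gene model Gm44511, whose exons were not examined. The region chr6:128797968-128800274, centred 9906 bp upstream of the 5′ end of the gene body, was listed in all 6 libraries at 93.0 to 96.0, and chr6:128801533-128803702, centred 13402 bp upstream, at 95.01 to 98.6. A region downstream of the gene, chr6:128763074-128767359, stood at 90.1 to 98.6. Of the 50-base words of these regions, 15.5%, 16.1% and 20.4%, in that order, occurred elsewhere. Strong distal peaks in every library thus stood beside a promoter that 5 of 6 libraries did not list. How far repeated sequence adds to the distal peaks was not tested.

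Klrg1 (ENSMUSG00000030114.8, chr6:122270596-122282882, minus strand) had a promoter peak in replicate 3 of each subset and in replicate 1 of none. The percentiles were 42.9 in Th9, 42.5 in Th2 and 24.7 in Th17, with fold enrichments of 2.26, 2.21 and 1.89. This call followed the replicate number and not the subset, and its cause was not tested. With −log10 q of at least 5, 0 libraries listed the Klrg1 or the Klrb1c promoter and 1 listed that of Klrk1. Upstream of it, 4 regions from 4112 bp to 12872 bp away were listed in all 6 libraries, with percentiles from 15.1 to 85.4, as was a downstream region (chr6:122257216-122260851) at 76.7 to 89.9. A region just past the gene end, chr6:122269153-122270458, was listed in Th2 at 59.5 and 68.4 and in Th17 at 57.7 and 18.3 alone.

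**Figure D4:**
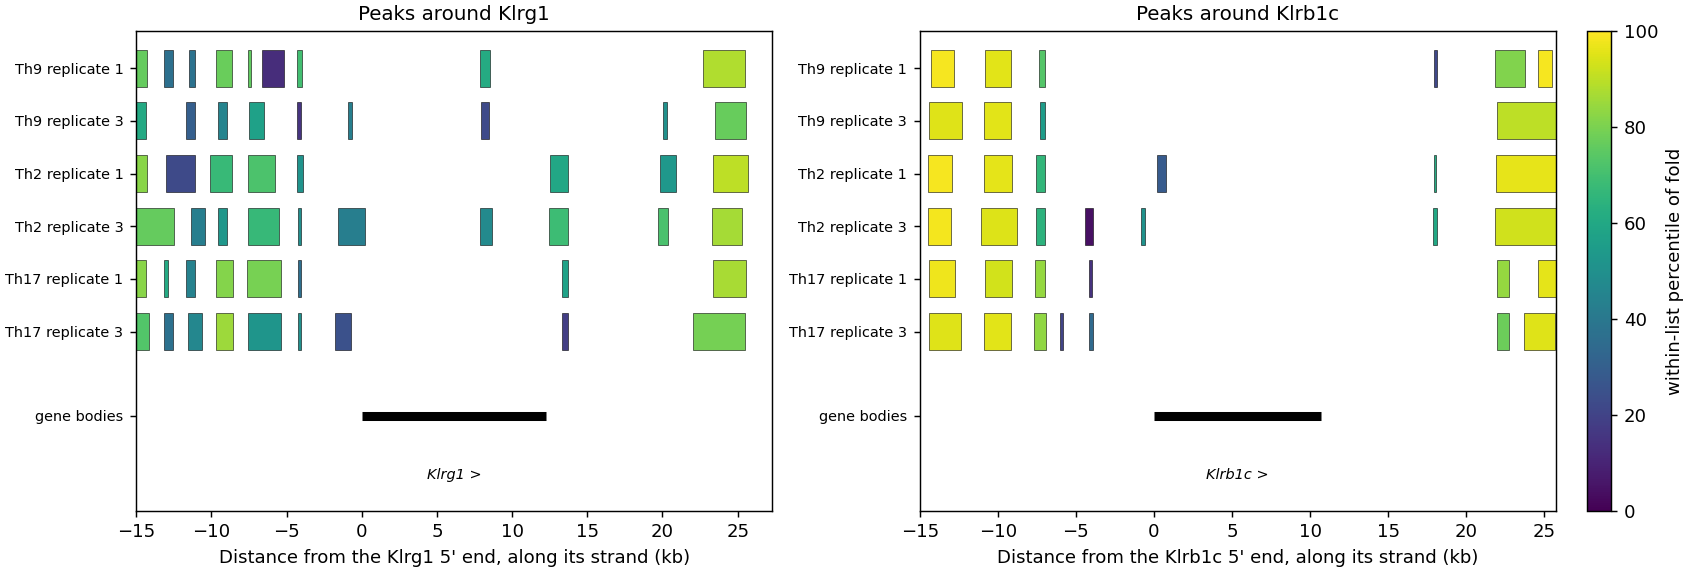
Peaks around Klrg1 (left) and Klrb1c (right), by distance in kb from the 5′ end along the strand of the gene. Bars are peaks coloured by within-list percentile of fold enrichment, and black lines are gene bodies. Within 1 kb of the 5′ end Klrg1 has bars in the replicate 3 rows alone and Klrb1c has bars in the Th2 rows alone, while bars farther upstream stand in all 6 rows.

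Regions went on past the edges of the windows. The last region inside the cluster window at the Klrc1 end (chr6:129693669-129693926) was listed by 3 libraries, and the first outside it, 4505 bp beyond (chr6:129698479-129698729), by both Th2 libraries alone at 13.3 and 21.9. At Klrb1c the first region outside, 674 bp beyond, was listed in all 6.

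Of 42 related genes, 40 were found in the annotation. Their promoters were listed in all 6 libraries for 17, in none for 12 and in some for 11, and 0 had the Th17 pattern of Klrd1. Among 18 other killer lectin genes the counts were 3, 8 and 7, and among 8 adaptor and signalling genes they were 5, 2 and 1. Klrb1f (54.3 and 71.1) and Klra7 (55.8 and 63.1) were listed in Th2 alone, and Klra1 in Th2 (40.3 and 33.7) and Th17 (60.4 and 51.5). Hcst, which encodes the adaptor DAP10 of NKG2D, was listed in all 6 at 83.2 to 90.6, and Tyrobp, which encodes the adaptor DAP12, in none. H2-T23, which encodes the Qa-1 ligand of CD94 pairs, was listed in all 6 at 69.4 to 86.5.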

How the data were processed

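ATAC-seq peaks were analysed for 6 libraries. Per the labels and methods, the authors trimmed reads with Trim Galore 0.4.3, aligned them to mm10 with bowtie2, removed duplicates with Picard, dropped mitochondrial and poorly mapped reads, and called broad peaks with MACS2 2.1.0 on paired fragments, for each library alone, with no input and no local background. The deposited lists give a fold enrichment (a linear ratio), p-values and q-values, both as −log10, and an integer display score, which was not used. With no local background, a repeated sequence can be listed as a peak. Fold enrichment was turned into a within-list percentile, since its scale differs between lists.

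Overlapping or touching peaks were joined into regions, and an overlap of at least 1 bp was a call. Genes came from the GENCODE basic set on GRCm38.p6. For each region, the 50-base words found elsewhere on 21 chromosomes were counted. All 8 members were named, at most 6 related genes with values, and the 3 genes of the same promoter pattern nearest to Klrd1. The members, gene lists and words were chosen with earlier results of these data known. No test was made, because members were chosen on these calls and each subset had 2 libraries. The joining and calling were tested on simulated data. Python 3.11.15, numpy 2.4.6, pandas 2.3.3 and biopython 1.88 were used. Alternative peak filters, list lengths, windows, overlaps and left-out libraries were tried. An item of the marker lists is not reported here.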

Additional observations from a re-analysis of the deposited data

How the results depend on the processing

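The Klrd1 promoter was listed in both Th17 libraries and no other under every alternative with all 6 libraries. The widest promoter window tried reached 2000 bp on either side of the start. Peaks of Th2 replicate 1, Th2 replicate 3 and Th9 replicate 1 lay just outside it, 2098, 2101 and 2153 bp upstream. A slightly wider window would thus have listed them. Klrd1 was the 1 member with that pattern also with any library left out. Leaving out a library gave 1 to 2 libraries with a Klrd1 promoter peak, 1 where a Th17 library was the one removed, by construction. Windows set from gene body ends, chosen after seeing the data, left the pattern of Klrd1 as it was and changed which library was listed for Klrb1c alone among the 8 members.

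Counts of regions moved more. The 48 member regions became 14 with a fold of at least 4, 14 with the top 20000 peaks and 20 with gene bodies only. The 3 regions in Th17 alone became 1 under each of these settings and 6 with a call in either library, and leaving out a library gave 3 to 6, with 6 without Th17 replicate 1. Regions in Th2 alone went from 0 to 1 with −log10 q of at least 5 or a fold of at least 2.2, 2 with lists of equal length, 4 with at least 50% of the region covered and 6 with either library, and leaving out any of the 6 libraries gave 1 to 5, with 5 without Th2 replicate 3. Regions in Th9 alone went from 0 to 1 with −log10 q of at least 5 or the top 20000 peaks, and ran from 0 to 1 with a library left out, 1 without either Th2 replicate. The 17 regions in all libraries became 10 with −log10 q of at least 5, 6 with a fold of at least 4, 5 with the top 20000 peaks, 8 with 5 kb on either side, 5 with gene bodies only and 5 with at least 50% covered. The 8 members with a promoter peak in at least 1 library became 4 with a fold of at least 4 and 5 with the top 20000 peaks. With a library left out, its subset was judged by the remaining library alone, so those counts follow a looser rule by construction. What else moved the counts was not tested.

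No paired analysis was possible because no result comes from a test. The lists hold no read counts, so an unlisted site is not shown to be closed.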
